A study of Homo sapiens with 9 samples.

Results

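Metallothioneins and zinc handling genes were followed across 9 arrays of HEK293 cells, an established human embryonic kidney line. The genes were 7 metallothioneins (MT1E, MT1F, MT1G, MT1H, MT1M, MT1X and MT2A), the metal-sensing transcription factor MTF1 and the zinc exporter SLC30A1. They were chosen by name, and every probe set that the platform annotation gives to only 1 of these 9 genes was taken. This gave 17 of the 54613 probe sets that are not array controls, and 9 of the 19775 genes with such a probe set. The series asked how cells respond to misfolded surfactant protein C, a small lung protein made as a proprotein. Cells received, by transient transfection, the wild-type protein (WT), one without exon 4 (Ex4) or one carrying the L188Q substitution (LQ), 3 arrays each. All 9 arrays therefore come from cells carrying a transfected surfactant protein C, and no untransfected or empty-vector cells were analysed here. Nothing in the labels ties the replicates to separate cultures, so each p-value refers to the spread among arrays of a group, and that spread may be technical.

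Metallothioneins are short cysteine-rich proteins that bind zinc and copper, buffer free zinc and take up toxic metals such as cadmium. Their genes are induced by zinc through MTF1, a zinc finger factor that binds metal response elements in their promoters when cellular zinc rises. SLC30A1, also called ZnT1, is another MTF1 target and carries zinc out across the plasma membrane, so its transcript and those of the metallothioneins are often read together as a zinc response.

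Promoter sequences are shown first because the metal response element is the feature that these genes are known to share. RefSeq windows (GRCh38.p14) were matched for 5 of the 9 genes, MT2A, MT1H, MT1X, MTF1 and SLC30A1. The others, MT1E, MT1F, MT1G and MT1M, had no entry. The 250 bases before each annotated start were searched on both strands for the core of the element, TGCACNC or TGCGCNC. Matches are in capitals in the 4 windows below, which run 5′ to 3′ on the strand of the gene. A core on the opposite strand appears as its reverse complement.
MT2A, chr16:56608334-56608583, plus strand: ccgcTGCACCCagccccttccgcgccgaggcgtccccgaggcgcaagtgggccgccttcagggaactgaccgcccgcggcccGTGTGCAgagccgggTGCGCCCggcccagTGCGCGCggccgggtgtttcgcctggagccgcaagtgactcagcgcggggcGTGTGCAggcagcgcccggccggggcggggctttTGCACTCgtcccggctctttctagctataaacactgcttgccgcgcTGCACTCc
MT1H, chr16:56669564-56669813, plus strand: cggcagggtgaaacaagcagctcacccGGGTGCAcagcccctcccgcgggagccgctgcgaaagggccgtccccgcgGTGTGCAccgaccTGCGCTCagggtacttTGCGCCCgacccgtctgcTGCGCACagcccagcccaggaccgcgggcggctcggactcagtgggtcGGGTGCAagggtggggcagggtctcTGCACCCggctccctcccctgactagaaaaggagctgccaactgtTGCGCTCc
MT1X, chr16:56682220-56682469, plus strand: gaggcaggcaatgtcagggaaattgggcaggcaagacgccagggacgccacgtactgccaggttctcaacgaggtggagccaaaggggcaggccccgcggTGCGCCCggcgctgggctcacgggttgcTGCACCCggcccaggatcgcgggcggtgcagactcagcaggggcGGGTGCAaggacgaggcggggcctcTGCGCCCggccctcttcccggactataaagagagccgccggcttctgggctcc
SLC30A1, chr1:211579162-211579411, minus strand: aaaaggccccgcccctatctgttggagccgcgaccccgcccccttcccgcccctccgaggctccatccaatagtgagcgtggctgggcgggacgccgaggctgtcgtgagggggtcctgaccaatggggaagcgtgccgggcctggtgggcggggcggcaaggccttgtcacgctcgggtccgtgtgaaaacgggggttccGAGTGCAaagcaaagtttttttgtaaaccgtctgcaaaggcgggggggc

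The MT2A window held 7 cores and the MT1H window 8, on both strands. The MT1X window held 4. The SLC30A1 window held 1, on the opposite strand, with its first base at position -49 from the start. The MTF1 window (chr1:37859593-37859842, minus strand) held 0, which says only that these letters are not in those 250 bases. Among 35116 windows of the same length, 24.8% held at least 1 core, 0.37% at least 4, 0.0313% at least 7 and 0.0171% at least 8. A single core as in SLC30A1 was therefore common, and the counts in the metallothionein windows were rare. MT2A, MT1H and MT1X each had a core on the gene strand at position -54, -53 and -53, in that order. A match is a description of sequence and not evidence of binding. In RefSeq's gene order on chromosome 16, MT2A comes first and MT1X last, with MT1E, MT1M, MT1F, MT1G and MT1H between them.

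**Figure D1:**
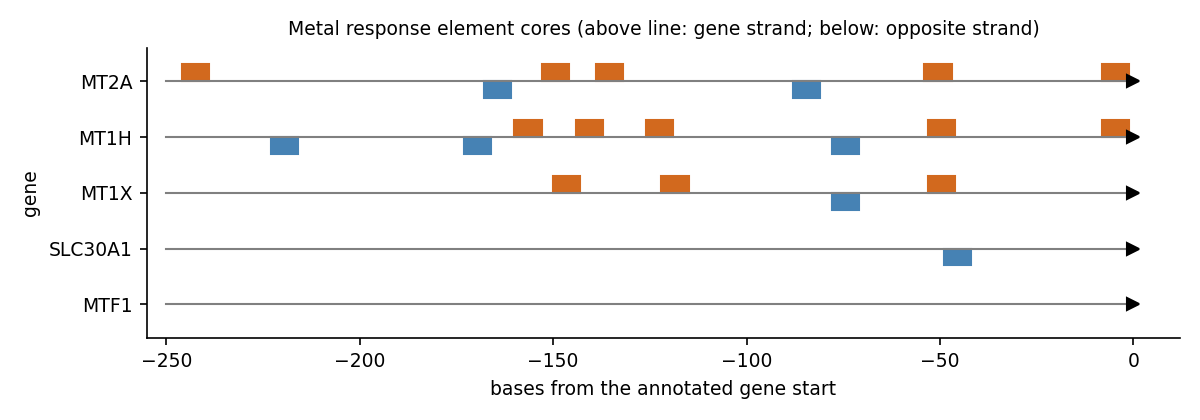
Positions of metal response element cores in the 250 bases before the start of 5 genes, in bases from the annotated start (arrowhead). Boxes above a line are on the gene strand and boxes below it on the opposite strand. MT2A has 7 boxes, MT1H 8, MT1X 4, SLC30A1 1 and MTF1 0.

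Each probe set has 1 MAS5 intensity per array. All 9 tested metallothionein probe sets end in _x_at, which on these arrays marks probe sets with probes that also match other transcripts. Metallothionein copies are closely similar in sequence, so a value may include signal of another copy, and which copy gave it was not tested. Intensities of different probe sets are not compared. Of the 17 probe sets, 14 passed the filter on dim probe sets, which required a mean log2 value at or above percentile 40, and these covered 8 genes. The other 3 were MT1G 210472_at, MT1M 217546_at and SLC30A1 242716_at. They lay below the array median on all 9 arrays, so MT1M, whose only probe set this was, had no measured level. On MT1M the arrays read 156.8, 120.9 and 61.6 in WT, 27.0, 7.0 and 11.8 in Ex4 and 180.2, 43.2 and 20.9 in LQ. The dim MT1G set ranged from 8.8 to 228.1 and the dim SLC30A1 set from 11.0 to 38.9.

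Array medians were 506.4 to 524.4 in WT, 316.1 to 434.3 in Ex4 and 303.9 to 371.8 in LQ, although trimmed means lay between 1493.4 and 1495.0. The scaling therefore sets where no change lies. Over the 32768 tested probe sets the median log2 change of both mutants against WT was -0.14 as deposited, 0.03 once arrays were quantile normalized and 0.40 when every array was centred at its median. The calls of both mutants split into 1601 higher and 2217 lower as deposited, into 1396 and 1005 under quantile normalization and into 9039 and 697 under median centring. RNA integrity was gauged by the 3' over 5' ratio of control genes. For GAPDH this ratio was 1.21 to 1.43 in WT, 0.956 to 1.22 in Ex4 and 1.06 to 1.09 in LQ. For ACTB it was 1.05 to 1.27 in WT, 1.15 to 1.48 in Ex4 and 1.15 to 1.23 in LQ. The GAPDH and ACTB ratios did not order the groups alike, and their part in the results was not tested. SFTPC, the transfected gene, was bright on all 9 arrays on 211735_x_at but differed by group. There it read 173159.7 to 261955.2 in WT, 97629.7 to 169241.4 in Ex4 and 108962.6 to 132057.7 in LQ. All WT arrays thus lay above all mutant arrays. On 214387_x_at it read 914.4, 39.1 and 28.7 on the Ex4 arrays, 108292.2 to 126185.1 in LQ and 158962.0 to 239964.0 in WT. On 38691_s_at and 215454_x_at the mutant arrays did not all lie below WT. The part of SFTPC signal in the results was not tested. Of 8 HEK293 marker genes all 8 lay above the array median on all 9 arrays. Their summed signal was 138400 to 181000 in WT, 131100 to 136000 in Ex4 and 135500 to 148000 in LQ. PAX2 was lower in both mutants together (log2 change -1.93, limma adjusted p = 0.0186). Alone, it passed in LQ (0.0254) and not in Ex4 (0.0769). Of 6 blood cell markers, 1 lay above the array median on all arrays and 2, PTPRC and LYZ, below it, and the sum was 2415 to 3154 in WT, 1608 to 1761 in Ex4 and 1331 to 1632 in LQ. Of 6 fibroblast markers, 1 was above and 3 below, with sums of 6721 to 8015, 4698 to 6012 and 3249 to 4381. COL1A1 was lower in both mutants together (-0.74, limma adjusted p = 0.0279). Alone, it passed in LQ (0.0284) and not in Ex4 (0.143). Of 6 alveolar type II markers, 2 were above and 1 below, with sums of 4099 to 6266, 3683 to 4301 and 4096 to 5044. The part of these markers in the results was not tested. In such bulk samples, fewer cells carrying a transcript and less of it per cell cannot be told apart.

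The metallothioneins as a group were not called in either mutant alone, and 1 of 9 tested probe sets was called in both mutants together. Tests used limma on log2(intensity + 16) with a Benjamini-Hochberg adjustment over all tested probe sets and a threshold of 0.05. In Ex4 against WT 0 of the 14 member probe sets passed, where 0.0122% of all tested probe sets passed, and 5 of 14 had an unadjusted p under 0.05, against 24.9% of all. In LQ against WT 0 of 14 passed, where 6.81% of all passed, and 6 had an unadjusted p under 0.05, against 28.9% of all. In LQ against Ex4 0 of 14 passed, where 0.0061% of all passed, and 2 had an unadjusted p under 0.05, against 4.1% of all. With both mutants together against WT 3 of 14 passed, against 11.7% of all, and 6 had an unadjusted p under 0.05, against 32.8%. These were 1 higher (4.89% of all) and 2 lower (6.77% of all). The 3 were SLC30A1 212907_at, higher, and MT1E 216336_x_at and SLC30A1 228181_at, lower. They cover 2 of the 8 tested genes.

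MT2A, a broadly expressed metallothionein, had no detectable difference between the groups. Its probe set 212185_x_at read 7243.6, 8506.6 and 6266.4 on the WT arrays, 5949.3, 10108.6 and 4373.9 on the Ex4 arrays and 4930.6, 6795.9 and 7588.1 on the LQ arrays. The 3 groups overlapped, and both the highest and the lowest array were Ex4. The means were 7339 ± 1120, 6811 ± 2960 and 6438 ± 1360 (SD, n = 3). The log2 change was -0.18 ± 0.28 (SE) in Ex4 and -0.20 ± 0.28 in LQ (limma adjusted p = 0.709 and 0.658). With median centring the changes were 0.30 and 0.38, also short of the threshold.

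MT1E was the metallothionein whose 216336_x_at probe set was called lower in both mutants together. It read 1497.5, 2050.1 and 2015.8 in WT, 1420.4, 828.6 and 569.3 in Ex4 and 781.2, 1061.9 and 727.8 in LQ. The 6 mutant readings lay below all 3 WT readings, although Ex4 replicate 1 lay close to WT replicate 1. WT averaged 1854 ± 310, Ex4 939.4 ± 436 and LQ 857 ± 179 (SD, n = 3). The log2 change of both mutants was -1.08 ± 0.28 (SE, limma adjusted p = 0.0353), which is 2.11-fold lower. Each mutant alone had a similar change and did not pass, with -1.05 ± 0.32 in Ex4 and -1.10 ± 0.32 in LQ (limma adjusted p = 0.100 and 0.0589). The direction held under the other scalings but the call did not, with -0.89 after quantile normalization (limma adjusted p = 0.0591) and -0.54 with median centring (0.134). Without limma's variance trend the adjusted p was 0.0589. Of the 9 fits with 1 array left out it passed in 2, those without WT replicate 1 or Ex4 replicate 1, and the adjusted p ranged from 0.00562 to 0.129. Alone, Ex4 passed without Ex4 replicate 1 (0.0133), and LQ passed in the 3 fits lacking WT replicate 1, Ex4 replicate 3 or Ex4 replicate 1 (lowest 0.0221).

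The second MT1E probe set, 212859_x_at, did not show that difference. It read 546.7, 711.8 and 1332.8 in WT, 883.0, 798.3 and 613.9 in Ex4 and 379.2, 597.6 and 558.4 in LQ. WT and both mutants overlapped, while all LQ arrays lay below all Ex4 arrays. Its log2 change was -0.37 ± 0.31 in both mutants (limma adjusted p = 0.424), and 0.03 after quantile normalization.

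MT1F, another zinc-induced copy, also had probe sets that differed. On 213629_x_at it read 1214.1, 2774.8 and 2042.3 in WT, 1220.9, 1446.7 and 626.9 in Ex4 and 1052.8, 716.7 and 851.1 in LQ. The LQ arrays lay below all WT arrays and the Ex4 arrays overlapped them. The log2 change was -1.13 ± 0.36 in LQ (limma adjusted p = 0.0736), -0.87 ± 0.36 in Ex4 (0.169) and -1.0 ± 0.31 in both (0.0569), and none passed. Both mutants together passed without WT replicate 1 or Ex4 replicate 1, the lowest adjusted p being 0.018 and the highest over the 9 fits 0.221. LQ alone passed without WT replicate 1 (0.0231).

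On the other MT1F probe set, 217165_x_at, the arrays read 508.6, 973.8 and 722.9 in WT, 254.9, 1176.9 and 1183.5 in Ex4 and 768.5, 1033.3 and 860.0 in LQ. The groups overlapped, and 2 of the 9 arrays lay below their array median. The log2 change of both mutants was 0.15 ± 0.44 (limma adjusted p = 0.833).

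MT1H, whose promoter window holds 8 cores, was not called in either mutant as deposited. Its probe set 206461_x_at read 1566.7, 2015.2 and 2906.2 in WT, 2037.6, 3176.2 and 1278.6 in Ex4 and 1011.8, 599.4 and 1032.1 in LQ. All LQ arrays lay below all WT and all Ex4 arrays, while WT and Ex4 overlapped with means of 2163 ± 682 and 2164 ± 955 (SD, n = 3). LQ averaged 881.1 ± 244 (SD, n = 3). The log2 change was -1.27 ± 0.35 in LQ (limma adjusted p = 0.0501), just short of the threshold, and -0.05 ± 0.35 in Ex4 (0.946). The difference between the mutants was -1.23 ± 0.35 and did not pass over all probe sets (limma adjusted p = 0.9999), so it is not shown that the mutants differ. Under quantile normalization LQ had -1.10 (limma adjusted p = 0.089) and under median centring -0.69 (0.186). In 4 of the 9 fits with 1 array left out LQ passed, those without WT replicate 1 or any 1 of the Ex4 arrays, with adjusted p from 0.0267 to 0.156. When the probe sets of each gene were averaged first, which tests fewer features, LQ passed for MT1H at the same log2 change of -1.27 (limma adjusted p = 0.0447). Of 14018 genes averaged so, 431 were called higher and 674 lower in LQ.

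MT1G and MT1X, 2 further zinc-induced copies, were not separated by group. MT1G 204745_x_at read 779.6, 1820.0 and 2166.6 in WT, 1571.5, 955.7 and 1338.8 in Ex4 and 1177.2, 2262.0 and 1344.5 in LQ. Its log2 change was -0.20 ± 0.38 in Ex4 and 0.07 ± 0.38 in LQ (limma adjusted p = 0.77 and 0.919). MT1X 208581_x_at read 2088.9, 3658.4 and 4274.9 in WT, 2427.4, 4876.9 and 2657.3 in Ex4 and 2329.5, 2894.4 and 3061.6 in LQ, all overlapping. MT1X 204326_x_at read 1457.8, 3040.8 and 4583.6 in WT, 1357.9, 3062.0 and 1582.8 in Ex4 and 1653.7, 2179.7 and 2176.4 in LQ, again overlapping. Their log2 changes in both mutants were -0.12 ± 0.27 and -0.50 ± 0.34 (limma adjusted p = 0.785 and 0.322). Without WT replicate 1 the second was -0.95 and passed (0.0458).

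**Figure D2:**
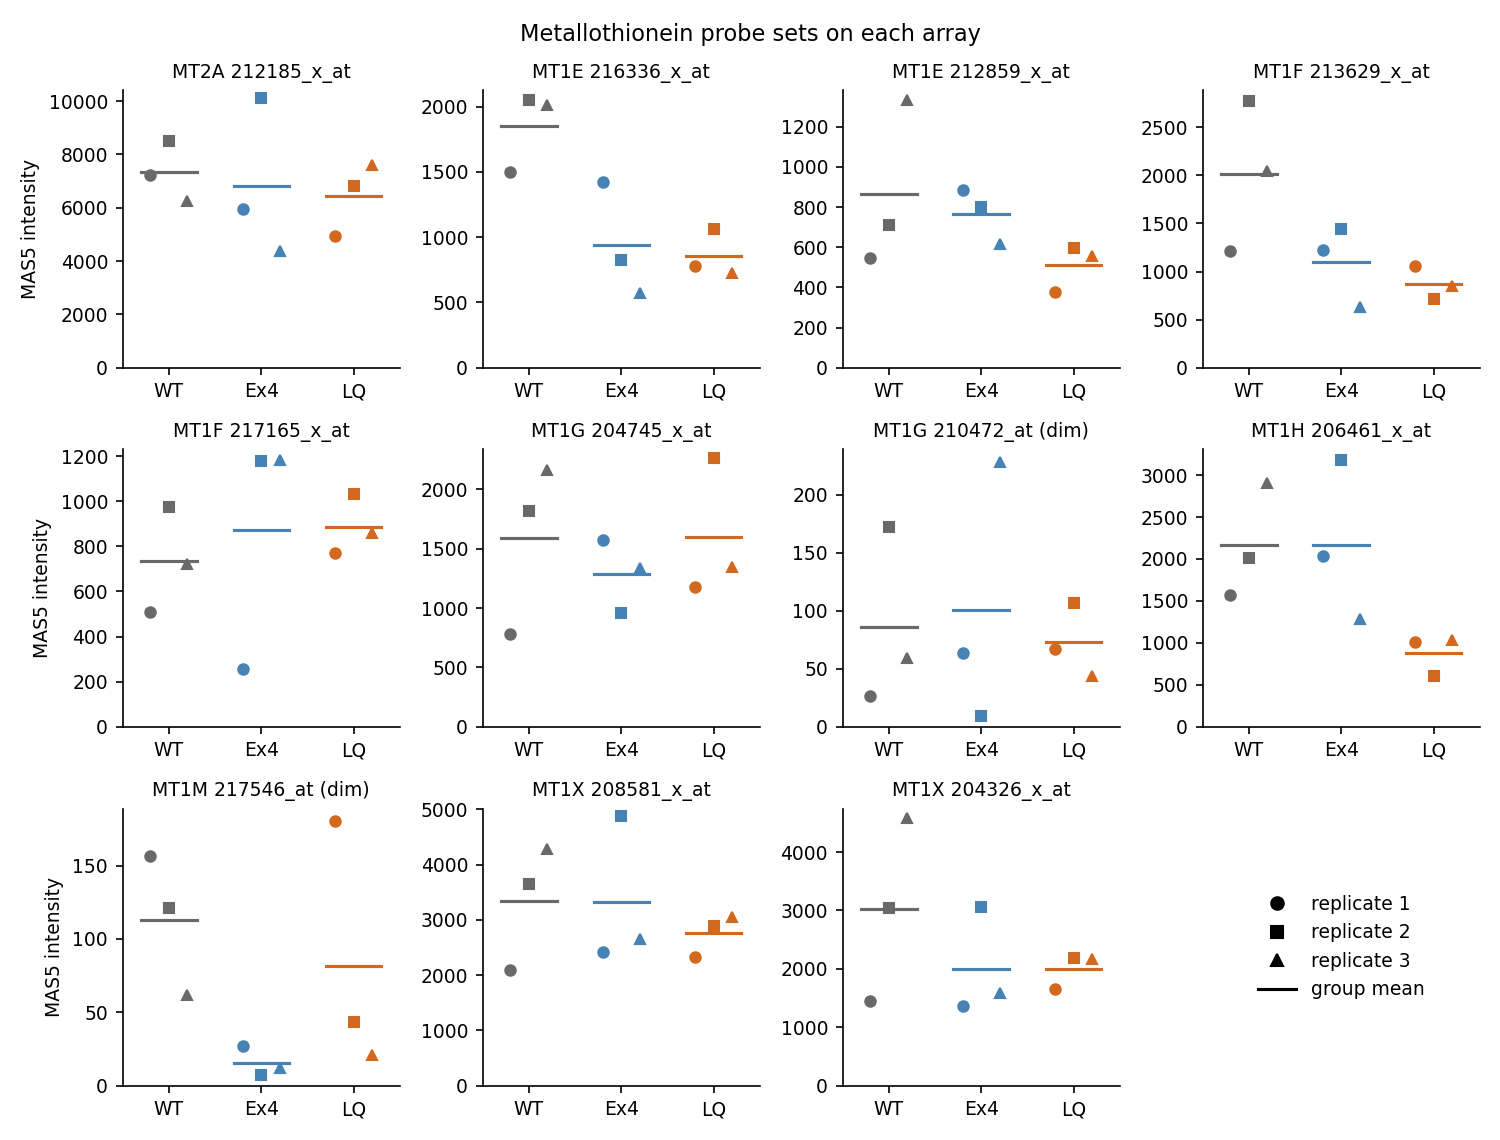
MAS5 intensity (linear axis from 0, its own scale in each panel) of the 11 metallothionein probe sets on each of 9 arrays. Points are arrays, shaped by replicate, and lines are group means. On MT1E 216336_x_at all mutant arrays lie below the WT arrays, on MT1H only the LQ arrays do, and the MT2A groups overlap.

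Across the 9 tested metallothionein probe sets the median log2 change was -0.18 in Ex4, -0.46 in LQ and -0.37 in both, against -0.12, -0.15 and -0.14 over all tested probe sets. Of the 9, 8 had a negative change in both mutants as deposited, where only 40.4% of all tested probe sets had a positive one. Of these 8, 6 kept the sign after quantile normalization and 3 with median centring. No direction of the family is therefore independent of the scaling. WT replicate 1 was the lowest WT array for 8 of the 9 probe sets, the exception being MT2A. Over the 9 arrays the 36 pairs of these probe sets had Pearson correlations from -0.42 to 0.904 with a median of 0.45, a description in which shared probes and array scaling enter. The highest was between the 2 MT1X probe sets and the lowest between MT1E 216336_x_at and MT1F 217165_x_at. Whether the metallothioneins follow 1 common pattern across the arrays was not tested.

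MTF1, the factor through which zinc induces the metallothioneins, had 3 tested probe sets that did not run together, and none passed. On 205322_s_at it read 3333.1, 3505.8 and 3083.7 in WT, 2845.8, 2223.1 and 1967.8 in Ex4 and 2840.1, 2588.4 and 2356.9 in LQ. Both mutants lay wholly below WT there. The log2 change of both mutants was -0.43 ± 0.17 (limma adjusted p = 0.0994), and it passed without Ex4 replicate 1 (0.0367), as did Ex4 alone (0.0423).
On 227150_at the order was turned, with 1703.7, 1316.8 and 1511.3 in WT, 2426.2, 1813.8 and 1880.9 in Ex4 and 2131.6, 1833.9 and 1868.2 in LQ. Both mutants lay wholly above WT. The log2 change of both mutants was 0.40 ± 0.18 (limma adjusted p = 0.147). With median centring it was 0.93 and passed (limma adjusted p = 0.00408), while 205322_s_at then had 0.11.
The third, 205323_s_at, read 1721.1, 1246.3 and 1103.5 in WT, 988.6, 1228.5 and 1184.4 in Ex4 and 1853.5, 2347.6 and 1653.3 in LQ. The LQ arrays lay above all Ex4 arrays, and WT overlapped both. LQ against Ex4 had a log2 difference of 0.77 ± 0.24, which did not pass over all probe sets (limma adjusted p = 0.9999). LQ against WT had 0.53 ± 0.24 (0.171), and with median centring it was 1.11 and passed (0.0124), as did both mutants together at 0.68 (0.0479). The changes of 205322_s_at and 227150_at in both mutants were opposite in sign as deposited and after quantile normalization (-0.46 and 0.53), and all 3 probe sets were positive with median centring.

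SLC30A1, the zinc exporter, was higher in both mutants on its brightest probe set and lower on another. On 212907_at it read 7332.1, 4340.7 and 4613.1 in WT, 7985.5, 11418.2 and 10531.5 in Ex4 and 8183.0, 8825.5 and 10522.6 in LQ. All 6 mutant arrays lay above all 3 WT arrays, and WT replicate 1 lay nearest to them. The means were 5429 ± 1650, 9978 ± 1780 and 9177 ± 1210 (SD, n = 3). The log2 change of both mutants was 0.84 ± 0.19 (SE, limma adjusted p = 0.0258), which is 1.80-fold higher. Alone, Ex4 had 0.90 ± 0.22 (0.079) and LQ 0.79 ± 0.22 (0.0511), and neither passed. Both mutants together passed under quantile normalization at 0.69 (limma adjusted p = 0.0439) and under median centring at 1.38 (0.00236), and fell short without limma's variance trend (0.0583). Of the 9 fits with 1 array left out they passed in 3, those without WT replicate 1, Ex4 replicate 1 or LQ replicate 1, with adjusted p from 0.00232 to 0.112. Ex4 and LQ each passed alone without WT replicate 1 or Ex4 replicate 1, with a lowest adjusted p of 0.00494 and 0.00653.

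On 228181_at SLC30A1 read 2561.7, 2604.0 and 2805.1 in WT, 2131.3, 1722.1 and 1868.2 in Ex4 and 1700.7, 1867.3 and 1583.4 in LQ. All 6 mutant arrays lay below all WT arrays. The means were 2657 ± 130, 1907 ± 207 and 1717 ± 143 (SD, n = 3). The log2 change of both mutants was -0.55 ± 0.16 (limma adjusted p = 0.0457), which is 1.47-fold lower. Quantile normalization left -0.53 short of the threshold (limma adjusted p = 0.0628), and median centring left -0.02 (0.953). It also missed the threshold with no filter on dim probe sets (0.0605) and without limma's variance trend (0.0617). Of the 9 fits with 1 array left out 2 passed, those without WT replicate 1 or Ex4 replicate 1, with adjusted p from 0.0228 to 0.151. LQ alone passed in the same 2 fits (lowest 0.0387). The mean of both SLC30A1 probe sets had a log2 change of 0.15 ± 0.13 (limma adjusted p = 0.432). Of 7025 genes with at least 2 tested probe sets, 47 (0.669%) had probe sets called in opposite directions in this comparison, and SLC30A1 was one.

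**Figure D3:**
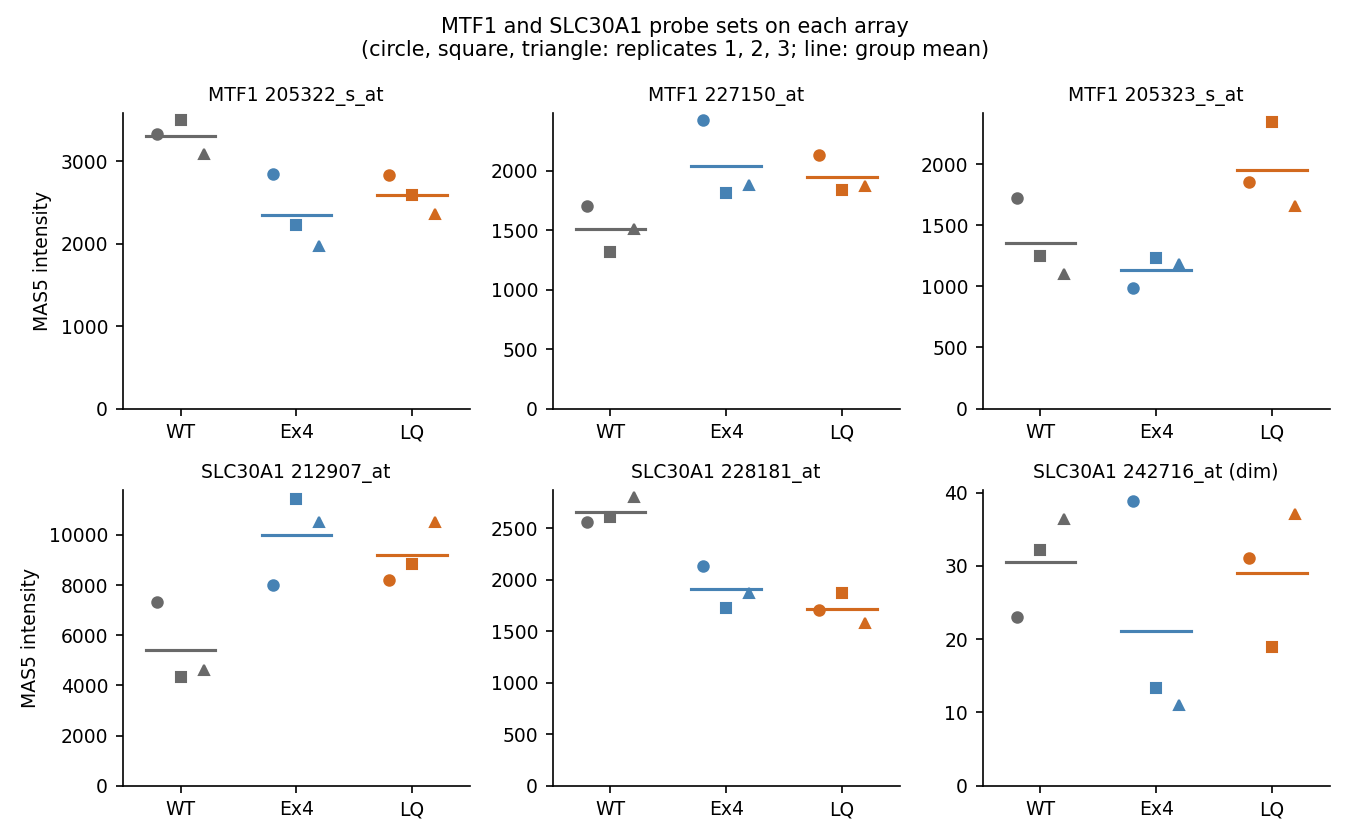
MAS5 intensity (linear axis from 0, its own scale in each panel) of the 3 MTF1 and 3 SLC30A1 probe sets on each of 9 arrays, with lines at group means. The mutant arrays lie above WT on SLC30A1 212907_at and MTF1 227150_at and below WT on SLC30A1 228181_at and MTF1 205322_s_at.

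Where mutant arrays did not overlap WT is given here with the share of all tested probe sets that did the same. In both mutants 2 of 14 member probe sets, SLC30A1 212907_at and MTF1 227150_at, had all 6 arrays above WT, against 5.46% of all. In both mutants 3 of 14, MT1E 216336_x_at, MTF1 205322_s_at and SLC30A1 228181_at, had all 6 below, against 11.5%. In Ex4 the counts were 2 above and 3 below, against 7.48% and 15.0%. In LQ they were 2 above and 5 below, the latter adding MT1F 213629_x_at and MT1H, against 13.1% and 24.2%. Counts this small among 14 probe sets were not tested against those shares.

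The difference between probe sets of 1 gene on the same array is not moved by a common scaling factor of that array, apart from the pseudocount. This comparison was added after the values were seen. For SLC30A1 the log2 difference of 212907_at minus 228181_at was 1.51, 0.73 and 0.71 in WT, 1.90, 2.72 and 2.48 in Ex4 and 2.26, 2.23 and 2.72 in LQ. All 6 mutant arrays exceeded all WT arrays. It was 1.40 ± 0.28 greater in both mutants, or 2.64-fold as a ratio, and did not pass over the 22442 such pairs of 7025 genes (limma adjusted p = 0.064). For MTF1 the difference of 205322_s_at minus 227150_at was 0.96, 1.40 and 1.02 in WT, 0.23, 0.29 and 0.06 in Ex4 and 0.41, 0.49 and 0.33 in LQ. All 6 mutant arrays were below all WT arrays, by -0.82 ± 0.19 (limma adjusted p = 0.069). Among 7 member pairs 2 had all mutant arrays on one side, against 12.6% of all pairs, and 0 were called, against 0.0535%. At an unadjusted p under 0.05 there were 3 of the 7, against 26.8% of all pairs. The third was the MT1E pair, whose groups overlapped, with 212859_x_at minus 216336_x_at 0.70 ± 0.30 greater in the mutants (limma adjusted p = 0.17). The SLC30A1 difference passed without WT replicate 1 or Ex4 replicate 1, and over the 9 fits its adjusted p ran from 0.011 to 0.173. Which transcript parts these probe sets cover was not analysed here.

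**Figure D4:**
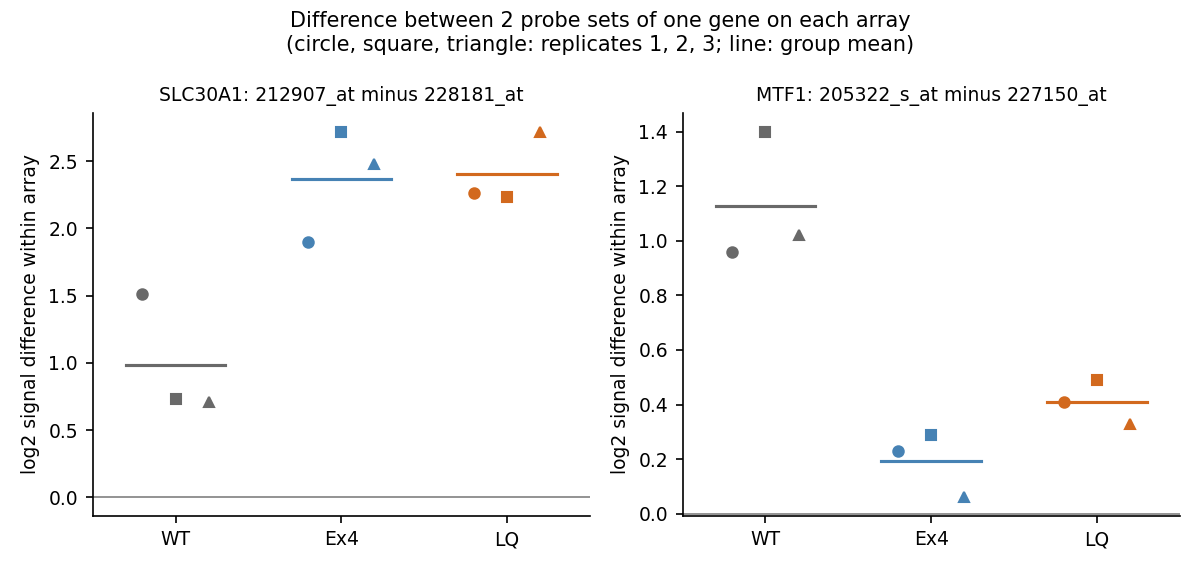
Difference in log2 signal between 2 probe sets of SLC30A1 (left) and of MTF1 (right) within each of 9 arrays, with lines at group means and zero in grey. For SLC30A1 all 6 mutant arrays lie at 1.90 or above and WT at 1.51 or below, and for MTF1 the mutants lie at 0.49 or below and WT at 0.96 or above.

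**Figure D5:**
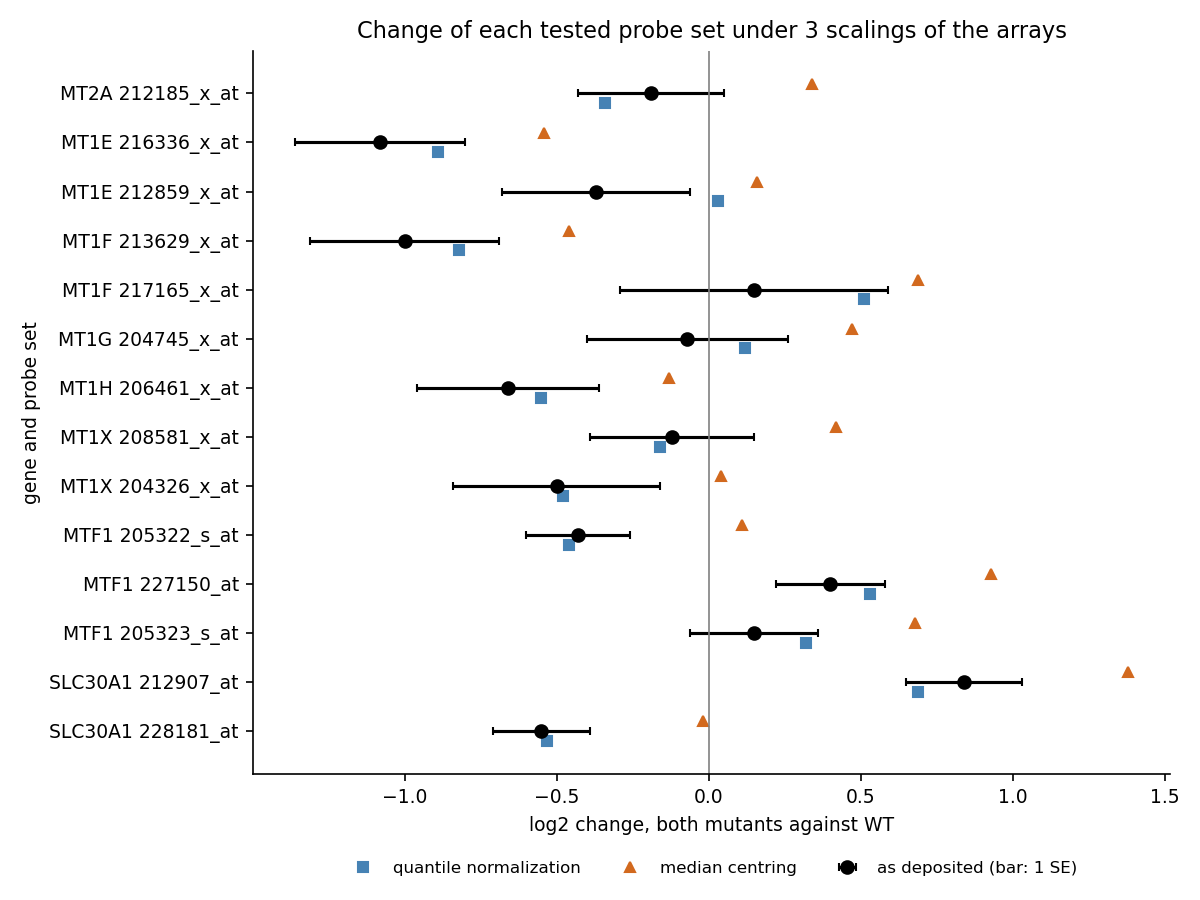
Log2 change of both mutants against WT for the 14 tested probe sets, as deposited (black, bar of 1 SE), after quantile normalization (blue) and after median centring of each array (orange). Median centring moves every probe set to the right, and SLC30A1 212907_at, MTF1 227150_at, MTF1 205323_s_at and MT1F 217165_x_at are above 0 under all 3 scalings.

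Other zinc transporters were read on the brightest probe set of each gene, where 7.32% of 14018 genes were called in LQ and 12.9% in both mutants. With both mutants, 872 genes were called higher and 942 lower as deposited, 565 and 491 after quantile normalization, and 4630 and 253, or 34.8%, with median centring. Of 10 zinc exporters, which are other SLC30 genes and TMEM163, 8 were tested and 1 was called, with a median log2 change of 0.06 in both mutants against -0.08 over all genes. SLC30A6 is a partner of SLC30A5 in zinc transport into the secretory pathway. It read 4956.5, 5870.6 and 6089.0 in WT, 3900.8, 3976.0 and 4726.8 in Ex4 and 3482.1, 3875.8 and 3461.7 in LQ. Every mutant array was below every WT array. Its log2 change was -0.53 ± 0.14 in both mutants (limma adjusted p = 0.0386) and -0.64 ± 0.17 in LQ (0.0438). Ex4 alone did not pass (0.149), and with median centring the change was 0.005 in both. Without limma's variance trend its adjusted p in both was 0.0708. With median centring SLC30A4, SLC30A5, SLC30A7 and SLC30A9 were the called exporters, 4 of 8 and higher (limma adjusted p from 0.00267 to 0.0255), against 34.8% of genes.
SLC30A5 and SLC30A9, named after their values were seen, had all 6 mutant arrays above WT, with log2 changes of 0.47 ± 0.15 and 0.50 ± 0.15 that did not pass (limma adjusted p = 0.0546 and 0.0555). The dim exporters SLC30A3 and SLC30A10 were not tested.

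Of the 14 importers of the SLC39 family, 12 were tested and 1 was called, with a median log2 change of -0.05. SLC39A14, an importer of zinc, iron and manganese, read 5151.8, 4697.3 and 4450.1 in WT, 5948.1, 7985.0 and 8634.5 in Ex4 and 6814.1, 7508.7 and 6981.9 in LQ. Every mutant array was above every WT array. It was 1.52-fold higher in both mutants together (log2 change 0.61 ± 0.15, limma adjusted p = 0.0305), with 0.47 after quantile normalization (0.06), and 0.064 was its adjusted p without limma's variance trend. Neither mutant passed alone (limma adjusted p = 0.084 in Ex4 and 0.0611 in LQ). SLC39A6, a plasma membrane importer, had 0.46 in both mutants together (limma adjusted p = 0.0806). With median centring 4 of the 12 were called, all higher, namely SLC39A6, SLC39A8, SLC39A10 and SLC39A14 (limma adjusted p from 0.00279 to 0.0391), against 34.8% of genes, and after quantile normalization 0 were. Both the SLC30A6 and the SLC39A14 call remained in 2 of the 9 fits with 1 array left out, those without WT replicate 1 or Ex4 replicate 1.

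Of 9 further metallothionein genes and pseudogenes, 3 had a probe set naming them alone and 1 was tested. MT1HL1, a copy related to MT1H, had a log2 change of -0.30 ± 0.39 in LQ (limma adjusted p = 0.634), and 0.28 with median centring. MT3 and MT4, which are known from brain and from squamous epithelium, fell under the filter on dim probe sets and were not tested. MT3 read 115.6, 107.4 and 149.4 in WT, 355.0, 64.5 and 111.6 in Ex4 and 453.6, 290.0 and 445.1 in LQ. Its LQ arrays lay above all WT arrays, and Ex4 overlapped WT. MT1A, MT1B, MT1L, MT1IP, MT1JP and MT1DP had no probe set naming them alone.

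Among 8 transcription regulators known to act at metallothionein promoters, 7 were tested and 3 were called in both mutants, 2 higher and 1 lower, against 12.9% of genes. NFE2L2, the regulator of antioxidant genes, read 8620.2, 7247.1 and 7969.5 in WT, 13720.1, 15559.0 and 16075.1 in Ex4 and 15814.3, 13057.7 and 12269.8 in LQ, with no overlap. It was 1.81-fold higher (log2 change 0.85 ± 0.13, limma adjusted p = 0.0167) and passed under both other scalings, at 0.69 and 1.39. It also passed in 7 of the 9 fits with 1 array left out, all but those without WT replicate 2 or WT replicate 3. In LQ alone NFE2L2 was higher by 0.78 ± 0.15 (limma adjusted p = 0.0254), and Ex4 alone did not pass (0.0763). HIF1A, the oxygen-regulated factor, was higher by 0.71 ± 0.17 in both mutants together (limma adjusted p = 0.0306). USF2, an E-box factor, was lower there, by -0.82 ± 0.23 (limma adjusted p = 0.0434), and had -0.29 with median centring (0.365). HIF1A and USF2 passed neither in Ex4 alone (limma adjusted p = 0.0775 and 0.135) nor in LQ alone (0.0918 and 0.0577). In both mutants together each passed in 2 of the 9 fits, those without WT replicate 1 or Ex4 replicate 1. Without limma's variance trend neither passed (0.0714 and 0.0856), and USF2 also missed with no filter (0.0505). With median centring 5 of the 7 regulators were called, all higher, against 34.8% of genes. They were NFE2L2, HIF1A, SP1, NR3C1 and EP300.

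Lists of other metal-related genes gave 0 calls by limma in both mutants as deposited, where 12.9% of genes were called and 34.9% had an unadjusted p under 0.05. With median centring, where 34.8% of genes were called, 7 of 11 tested copper handling genes, 4 of 10 metal stress genes and 3 of 8 glucocorticoid targets were called, all higher. After quantile normalization 1 was, TSC22D3, at -0.79 (limma adjusted p = 0.0418). Of 12 copper handling genes 11 were tested, with 1 at an unadjusted p under 0.05. The copper importer SLC31A1 had 0.84 ± 0.31 in LQ (limma adjusted p = 0.103), and SLC31A2, its relative, -0.60 ± 0.30 (0.208). Of 12 genes induced by metal and oxidative stress 10 were tested, with 2 at an unadjusted p under 0.05. NQO1, an NFE2L2 target, had -1.01 ± 0.44 in LQ (limma adjusted p = 0.157). HSPA6, an inducible HSP70, had -0.99 ± 0.36 in LQ (0.102) and 1.16 in Ex4 (0.10). Of 9 glucocorticoid targets 8 were tested, since glucocorticoids also induce metallothioneins, with 3 at an unadjusted p under 0.05. ZBTB16 had -0.88 ± 0.44 (limma adjusted p = 0.209) and TSC22D3 -0.66 ± 0.23 (0.0946) in LQ. The genes named are the 2 largest changes of each list in LQ and do not stand for their list. In LQ 8 of the 11 copper handling genes, 6 of the 10 stress genes and 4 of the 8 glucocorticoid targets had a positive change. The list medians were 0.26, 0.04 and -0.06 in that order, against -0.09 over all genes. Without WT replicate 1, LQ passed for SLC31A1, NQO1 and TSC22D3 (lowest limma adjusted p over the 9 fits 0.0344, 0.0367 and 0.0188), and without Ex4 replicate 1 it passed for SLC31A1 and HSPA6 (lowest for HSPA6 0.0478). With median centring SLC31A1 passed at 1.43 (0.0127).

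The genes most like MT2A over the 9 arrays, among 14010 non-member genes read on their brightest probe set, were PTPRF (Pearson r = 0.963), TOLLIP-DT (0.942), METTL25B (0.927), LHX2 (0.913) and EXOC3-AS1 (0.905). The member metallothioneins were left out of this ranking, so it does not show whether MT2A runs with its family. The genes most like SLC30A1 212907_at were TNPO1 (0.985), LRCH2, NUP54, CEP350 and RMI1 (0.983 each). All 5 had, like SLC30A1, their highest WT reading on WT replicate 1, which follows largely from choosing them by likeness. The points share array scaling, and these values describe 9 arrays only.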

How the data were processed

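RNA of transfected HEK293 cells was read on 9 Affymetrix arrays. The authors deposited 1 linear intensity per probe set and array. Per the submitters' processing notes the tool was MAS5, of a version not given in the sources read. MAS5 scales each array to a common mean, and this scaling was kept. The number of arrays limits the precision, and detection calls were not used here. The 9 genes, the lists and the tests were chosen with earlier results of these data known.

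Of 54613 probe sets without controls, 41091 carried 1 gene symbol in the platform annotation, 1801 several and 11721 none. Values were used as log2(intensity + 16), a scale that makes changes of dim probe sets look smaller, and probe sets with a mean under percentile 40 were left out. All 9 arrays entered a single fit in limma 3.58.1 (R 4.3.3) with a variance trend, with two-sided tests adjusted within each contrast over 32768 probe sets. It was tested on simulated data. Named were all member probe sets, list genes past the threshold (or, with none, the 2 largest changes in LQ), SLC30 and SLC39 genes with their levels, and the 5 genes most like MT2A and SLC30A1. Each list gene was read on its brightest probe set.

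Same-numbered replicates had deviations from their group means that correlated from -0.0827 to 0.191, and differently numbered ones from -0.229 to 0.164. These ranges overlapped, and the numbers were not taken as pairs in the main fit. Between WT and LQ, same-numbered arrays had 0.0739 to 0.173 and the others -0.132 to 0.0346. In the other comparisons of groups the ranges overlapped. A shared effect of the replicate number is therefore not excluded. Alternatives were pseudocounts of 1 and 64, quantile normalization, median centring, the filter dropped or set at percentile 60, the trend dropped, a fit on the compared arrays alone, a replicate block, array weights, gene means over probe sets and each array left out. The within-array difference, fitted without a variance trend, and the list counts under the other scalings were added after seeing the data.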

Additional observations from a re-analysis of the deposited data

How the results depend on the processing

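In both mutants together, 3 member probe sets were called as deposited, 1 after quantile normalization, 0 without the variance trend, 5 with array weights and 0 to 5 with 1 array left out. The count was 5 without WT replicate 1 or Ex4 replicate 1, 1 without LQ replicate 1 and 0 without any 1 of the others. Calls over all 32768 tested probe sets moved as well, from 1601 higher and 2217 lower as deposited. They were 3270 and 3061 without WT replicate 1, and 2585 and 4644 without Ex4 replicate 1. Without WT replicate 2 they were 22 and 3, and without WT replicate 3 they were 30 and 4. They were 622 and 691 without Ex4 replicate 2, and 434 and 455 without Ex4 replicate 3. Without LQ replicate 1 they were 466 and 720, without LQ replicate 2 447 and 617, and without LQ replicate 3 168 and 141. Array weights gave 3813 and 5223, and dropping the variance trend gave 402 and 1118. In Ex4 the member count was 0 as deposited, 2 with median centring, 2 with array weights and 0 to 3 with 1 array left out. Over all tested probe sets the Ex4 calls were 2 higher and 2 lower as deposited. They were 4824 and 282 with median centring, 2363 and 2924 with array weights, and 1415 and 3018 without Ex4 replicate 1. In LQ the member count was 0 as deposited, 2 at a pseudocount of 64, 3 with median centring and 3 with the filter at percentile 60. It was 5 with only the arrays compared, 6 with array weights and 0 to 5 with 1 array left out. Over all tested probe sets the LQ calls were 1011 higher and 1220 lower as deposited. They were 7934 and 518 with median centring, 1480 and 2555 with only the arrays compared, and 3744 and 4836 with array weights. At a pseudocount of 64 they were 1104 and 1448. With the filter at percentile 60 they were 1181 and 1029 of 21845 probe sets. Without WT replicate 1 they were 2698 and 2295, and without Ex4 replicate 1 they were 1712 and 2694. In LQ against Ex4 the member count was 0 under every alternative run, with 2 of all tested probe sets called as deposited. With the replicate block the count in both mutants was 2, SLC30A1 212907_at and MT1E 216336_x_at, with SLC30A1 228181_at at a limma adjusted p of 0.0553, and no member passed in Ex4 or LQ. Over all tested probe sets the block gave 1750 higher and 2254 lower calls in both mutants. By gene, 2 of the 8 tested genes passed in both mutants on their brightest probe set, against 12.9% of 14018 genes. On the mean of their probe sets 0 passed, where 643 of the 14018 genes were called higher and 1151 lower. The fit of both mutants uses all arrays, so it has no version with only the arrays compared. Over all alternatives, 874 changes of single probe sets kept their direction and side of the threshold, 66 lost a call, 55 gained one and 48 changed sign. The cause of these shifts was not tested.

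Median centring turned the sign of MT2A in Ex4 (0.30), LQ (0.38) and both (0.34), of MT1E 212859_x_at in Ex4 (0.40) and both (0.16), of MT1G in Ex4 (0.29) and both (0.47), of MT1H in Ex4 (0.44), of MT1X 208581_x_at in Ex4 (0.47), LQ (0.36) and both (0.42), and of MT1X 204326_x_at in LQ (0.13) and both (0.04). It also turned MTF1 205322_s_at in LQ (0.23) and both (0.11), MTF1 205323_s_at in Ex4 (0.25), SLC30A1 228181_at in Ex4 (0.009), SLC30A6 in both (0.005) and MT1HL1 in LQ (0.28). Quantile normalization turned MT1E 212859_x_at in Ex4 (0.27) and both (0.03), MT1G in both (0.12) and MT1H in Ex4 (0.005). A pseudocount of 1 turned MT1F 217165_x_at in Ex4 (-0.003), and array weights turned MT1G in LQ (-0.11). With 1 array left out, log2 changes ran in Ex4 from -0.51 to 0.09 for MT2A, -0.36 to 0.27 for MT1E 212859_x_at, -0.35 to 0.72 for MT1F 217165_x_at, -0.65 to 0.08 for MT1G, -0.37 to 0.28 for MT1H and -0.33 to 0.19 for MT1X 208581_x_at. They ran from -0.37 to 0.36 for MT1G in LQ. In both mutants they ran from -0.08 to 0.51 for MT1F 217165_x_at, -0.51 to 0.22 for MT1G and -0.42 to 0.09 for MT1X 208581_x_at. None of these turned values was called as deposited except that of SLC30A6.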
